A study of Danio rerio with 4 samples.

Results

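Cytosolic ribosomal protein genes were taken as the rows of the count table whose gene symbol, ignoring case, starts with rpl or rps and a digit, or with rplp and a digit. The S6 kinase genes (rps6k), the binding protein rps19bp1 and the variants RPL7L1 and RPL22L1 were left out. This gave 81 of the 31952 genes in the table, of which 45 encode proteins of the large and 36 proteins of the small ribosomal subunit. The symbols are printed as the name table spells them, some in the human style, and some proteins, among them RPL5 and RPS26, are represented by 2 genes with the same name. Those copies are told apart here by their Ensembl identifiers.

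Nuclear RNA was sequenced from heads of zebrafish larvae at 5 days post fertilisation (dpf), in 2 control and 2 NRas+ libraries. All larvae came from a cross that carried mpo:BirA-Citrine together with bactin:Avi-Cerulean-Rangap (ox128), and kita:LexPR-Cerulean together with PcrysB:ECFP-LexOP:mCherry-NRas. The labels give this second line as ox130, whereas the methods use ox129 for the kita line and ox130 for a line driven by mitfa, so its allele number is not settled. In this design the biotin ligase BirA is driven from the neutrophil gene mpo (mpx), the Avi-tagged nuclear envelope protein from the broadly active bactin promoter, and the LexPR activator from kita in melanocytes. BirA adds biotin to the tag, and the study pulled the tagged nuclei down from the dissected heads before extracting RNA. Controls carried the same transgenes and received no drug, whereas NRas+ larvae were kept in 1 µM mifepristone from 24 h post fertilisation, which switches on the Q61K form of NRas in melanocytes. For profiling, the study picked embryos with mCherry-NRas in their melanocytes, which needs the drug, and how control larvae were picked is not stated. In these libraries the drug, the oncogene and this selection therefore cannot be told apart, and each library is a pool of larvae. The study also gave the drug to larvae with only the BirA and Avi-Rangap transgenes. By qPCR it reported little or no change in selected candidate genes, and no ribosomal protein gene was among them. The count total ranged from 30619195 to 42365244 per library.

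The markers of the labelled cell type were scarce. The 24 neutrophil genes matched to the table took between 0.00749% and 0.0145% of the counts, with the lysozyme gene lyz between 3.0 and 12.6 CPM (counts scaled for library size), and mpx was not matched by name. Skeletal muscle genes accounted for 20.4% to 28.6% of each control library and for 40.4% to 40.7% of each NRas+ library. The share of muscle RNA thus moved with the condition in the direction opposite to the ribosomal protein genes described below, and its part in their lower values was not tested. In such bulk samples, fewer cells of a type and less RNA per cell cannot be told apart.

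A ribosome is built from a large subunit, which joins amino acids at the peptidyl transferase centre, and a small subunit, which reads the mRNA. Each protein is normally present once per ribosome apart from the acidic P proteins of the stalk, so the genes tend to be expressed together. Their mRNAs begin with a terminal oligopyrimidine (TOP) sequence, through which the TOR kinase controls translation. In zebrafish, loss of one copy of any of several ribosomal protein genes predisposes the fish to tumours, and in humans such mutations cause Diamond-Blackfan anaemia.

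The ribosomal protein genes took a smaller share of the library in both NRas+ libraries. Together they held 8.76% of all counts in control 1 and 6.57% in control 2, against 3.35% in NRas+ 1 and 2.66% in NRas+ 2. The groups did not overlap, and the mean share was 7.66% ± 1.55 (SD, n = 2) for the controls against 3.0% ± 0.486 (SD, n = 2) for NRas+, a ratio of 2.55. Large subunit genes alone held 5.37% (control 1), 4.06% (control 2), 2.14% (NRas+ 1) and 1.71% (NRas+ 2). Small subunit genes held 3.39% and 2.50% in the controls and 1.21% and 0.948% in NRas+. When the skeletal muscle genes were removed from the total, the share was 12.3% and 8.25% in the controls and 5.62% and 4.48% in NRas+, so that the groups still did not overlap but the ratio was 2.03. With 2 libraries against 2, the smallest two-sided p of an exact permutation test is 0.333, and no test was made of these sums.

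**Figure D1:**
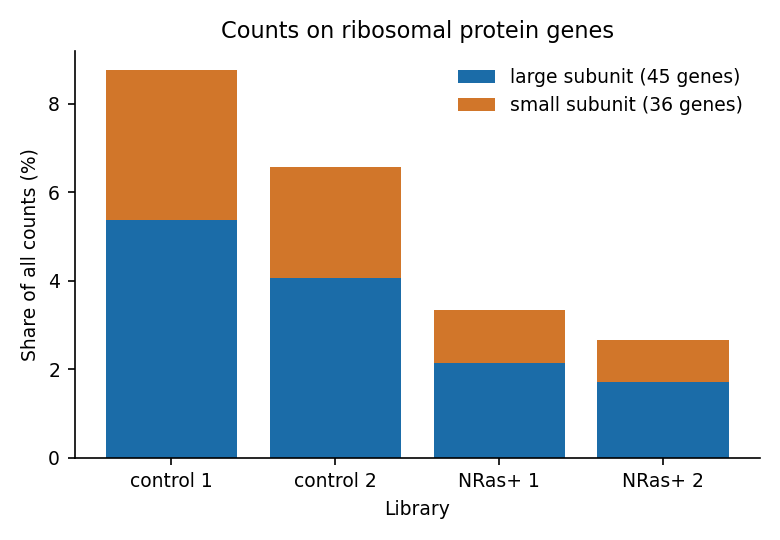
Share of all counts (%, vertical axis) on the 45 large and 36 small subunit genes, stacked, in each of the 4 libraries. The total is 8.76% and 6.57% in the controls and 3.35% and 2.66% in NRas+.

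Gene by gene, the direction was nearly uniform. After scaling of the libraries by trimmed mean of M-values (TMM), 80 of the 81 genes had a negative log2 fold change (NRas+ minus control) and 1 had a positive one. The median was -1.40, equal to a 2.64-fold lower level, while the median of all 20099 genes tested was -0.043. Both NRas+ libraries lay below both controls for 74 of the 81 genes (background 21.8% of all genes tested), and above them for 1 gene (background 20.5%). By the size of the log2 fold change, 6 genes were below -2, 59 between -2 and -1, and 15 between -1 and 0.

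No single ribosomal protein gene passed the threshold over all genes tested. By edgeR's quasi-likelihood test at an adjusted p under 0.05, 0 of the 81 were lower (background 0.0398%) and 0 were higher (background 0.129%), the smallest adjusted p being 0.0773. At an unadjusted p under 0.05, 63 of the 81 were lower (background 6.13%), of which 34 belong to the large and 29 to the small subunit, and 0 were higher (background 5.17%). DESeq2, the tool used by the study, gave 21 of the 81 as lower (background 0.79%), 12 of the large and 9 of the small subunit. With only genes of at least 10 counts in every library, the edgeR test gave 12 as lower (background 0.42%), and DESeq2 had called all 12 of these. All 81 genes passed the filter on low counts.

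After TMM scaling, the spread between control libraries was close to the difference between conditions (2.64-fold at the median). The unscaled share of all counts was 8.76% and 6.57% in the controls against 3.35% and 2.66% in NRas+. On the TMM scale, control 1 lay above control 2 for all 81 genes (background 9410 of 20099 genes tested), by a median of 2.14-fold. NRas+ 1 lay above NRas+ 2 for all 81 (background 9501 of 20099), by a median of 1.56-fold. The full order control 1, control 2, NRas+ 1, NRas+ 2 held for 74 genes (background 1253 of 20099). Without control 1, the median log2 fold change was -0.67 and 0 genes were called, whereas without control 2 it was -1.84 and 56 of the 81 were called lower (background 1.26%). In these fits the lone control is assumed to vary like the libraries of the other group. The TMM factors were 0.878 and 1.41 for control 1 and control 2 and 0.861 and 0.941 for the NRas+ libraries, so the scaling lowers control 2 the most. On plain library totals the median log2 fold change was -1.59 against -0.40 for all genes tested. There 6 of the ribosomal protein genes were called (background 0.0697%), namely RPS19, RPS15A, RPL35A, RPL18, RPS14 and rps20.

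**Figure D2:**
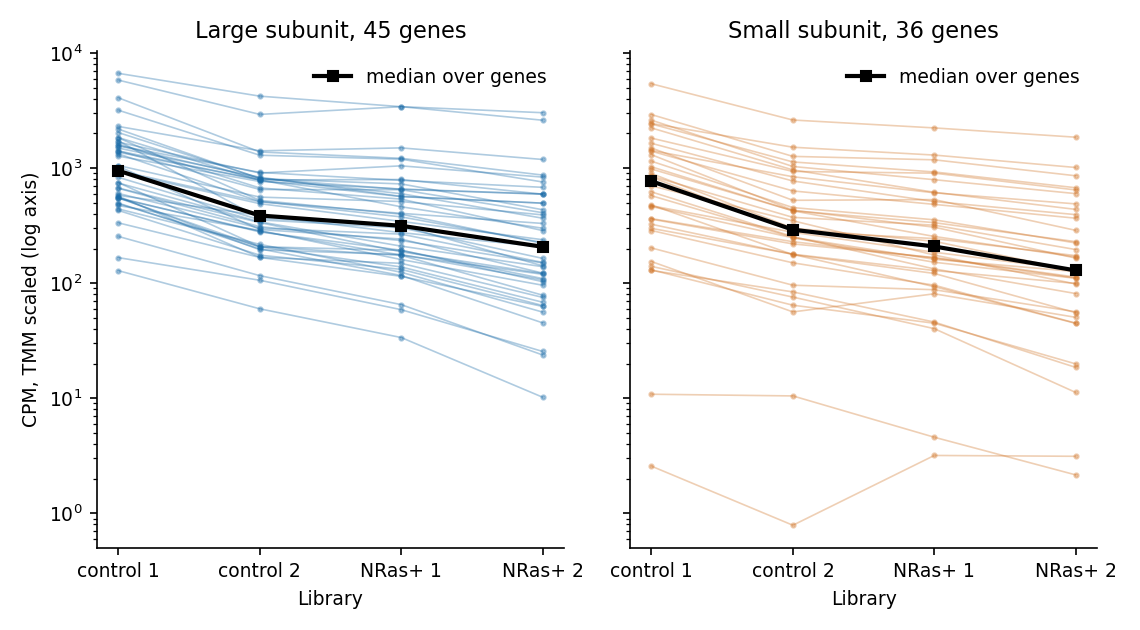
TMM-scaled CPM (log axis) of each large subunit gene (left) and each small subunit gene (right) in the 4 libraries. Each line joins the values of 1 gene, black squares are the median over genes, and control 1 is the highest library in both panels (medians of 949 and 769 CPM).

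The large and the small subunit were compared next, since the proteins of both are needed in equal number. Their median log2 fold changes were -1.40 and -1.40, with a difference (large minus small) of -0.00045. The middle 50% of genes lay between -1.69 and -1.01 in the large subunit and between -1.68 and -1.06 in the small one. All 45 large subunit genes and 35 of the 36 small subunit genes had a negative log2 fold change. Both NRas+ libraries lay below both controls for 41 and 33 of them (background 21.8% of all genes tested). The median CPM of the large subunit genes was 949 and 387 in the controls and 315 and 207 in NRas+, and that of the small subunit genes 769 and 292 in the controls and 208 and 129 in NRas+.

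The sums of counts were compared as well. The ratio of large to small subunit counts was 1.59 and 1.62 in the controls and 1.77 and 1.80 in NRas+, without overlap. RPL3, a core protein near the peptidyl transferase centre, held 6.68% and 9.02% of the ribosomal protein pool in control libraries. In NRas+ it held 8.79% and 10.7%, so that control 2 lay above NRas+ 1 and the groups overlapped. RPLP0, the base of the P stalk that recruits elongation factors, held 5.83% and 6.26% in the controls and 8.79% and 9.22% in NRas+. Both genes were chosen after their values were seen. With RPL3 and RPLP0 left out of the sums, the ratio of large to small subunit counts was 1.26 and 1.22 in the controls. It was 1.29 and 1.24 in NRas+, so the groups then overlapped.

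The 6 genes with a log2 fold change below -2 were, from the lowest, RPL24, RPL39, RPL38, RPS29, RPL29 and RPS15A. RPL39 (ENSDARG00000036316), a very small protein that lines the exit tunnel, had 496 and 199 CPM in the controls and 117 and 45.2 CPM in NRas+, giving -2.1 as log2 fold change (standard error 0.50, adjusted p = 0.0801 by edgeR's quasi-likelihood test). RPL38 (ENSDARG00000006413), which in mice is needed for the translation of some Hox mRNAs, had 128 and 59.8 CPM in the controls and 33.7 and 10.2 CPM in NRas+ (log2 fold change -2.1). RPL29 (ENSDARG00000077717), a surface protein of the large subunit, had 255 and 116 CPM against 65.1 and 23.8 CPM (log2 fold change -2.06). In each of these genes NRas+ 2 was the lowest library and control 1 the highest. Both NRas+ libraries lay below both controls, which for RPL39, RPL38 and RPL29 was a condition for naming them.

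RPL24 (ENSDARG00000099104) was named after its values were seen, as the gene with the lowest log2 fold change of all 81, at -2.19 (standard error 0.62, adjusted p = 0.147). It forms part of a bridge between the subunits. Its level was 1725 CPM in control 1 but only 366 in control 2, next to 315 in NRas+ 1 and 141 in NRas+ 2. Control 1 thus stood apart from the other libraries, and without it the log2 fold change was -0.67.

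In the small subunit, RPS15A (ENSDARG00000010160), which has a place in early maturation of the subunit, had 622 and 254 CPM in the controls and 133 and 81.2 CPM in NRas+, with -2.03 as log2 fold change (standard error 0.47, adjusted p = 0.0773 by edgeR). RPS29 (ENSDARG00000041232), a small zinc-binding protein of the head, had 140 and 75.7 CPM against 40.2 and 11.2 CPM (log2 fold change -2.06). RPS28 (ENSDARG00000035860), which sits where mRNA leaves the subunit, had 325 and 178 CPM against 93.3 and 44.7 CPM (log2 fold change -1.86). The groups did not overlap for any of these genes, which was a condition for naming them. All passed with DESeq2 (adjusted p = 0.0077 for RPS15A, 0.03 for RPS29 and 0.0176 for RPS28). That test used the same 4 libraries from which these genes were named for a small unadjusted p, so it is no separate support.

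At the other end of the ranking stood genes with overlapping groups. RPL19 (ENSDARG00000013307), RPL4 (ENSDARG00000041182), RPLP0 (ENSDARG00000051783) and RPL8 (ENSDARG00000014867) of the large subunit, and rps27l (ENSDARG00000100513) and RPS7 (ENSDARG00000042566) of the small one, had an NRas+ library above a control. RPL4, whose protein reaches into the exit tunnel beside RPL39, had 2302 and 1413 CPM in the controls and 1499 and 1189 CPM in NRas+, with -0.47 as log2 fold change (standard error 0.56, adjusted p = 0.813 by edgeR). RPL19, another bridge protein, had 1682 and 907 CPM against 1047 and 835 CPM (log2 fold change -0.46). RPL8 of the peptidyl transferase region had 1411 and 789 CPM against 796 and 594 CPM (log2 fold change -0.66). In all of these control 1 was the highest library, and control 2 lay within the range of the NRas+ libraries for these 3 genes. Without control 1, the log2 fold change turned to 0.065 for RPL19, 0.053 for RPLP0 and 0.23 for rps27l. RPS7 had 1497 and 525 CPM against 532 and 288 CPM, so that its overlap rests on a small difference between control 2 and NRas+ 1.

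Fold change and level were related across genes. Over the 79 genes with a mean above 10 CPM, Spearman's rho between the mean CPM and the log2 fold change was 0.524, with 0.661 among 45 large and 0.365 among 34 small subunit genes. Genes with fewer counts thus had lower log2 fold changes. These values describe genes that share the same 4 libraries, and CPM also depends on transcript length, which was not used here.

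**Figure D3:**
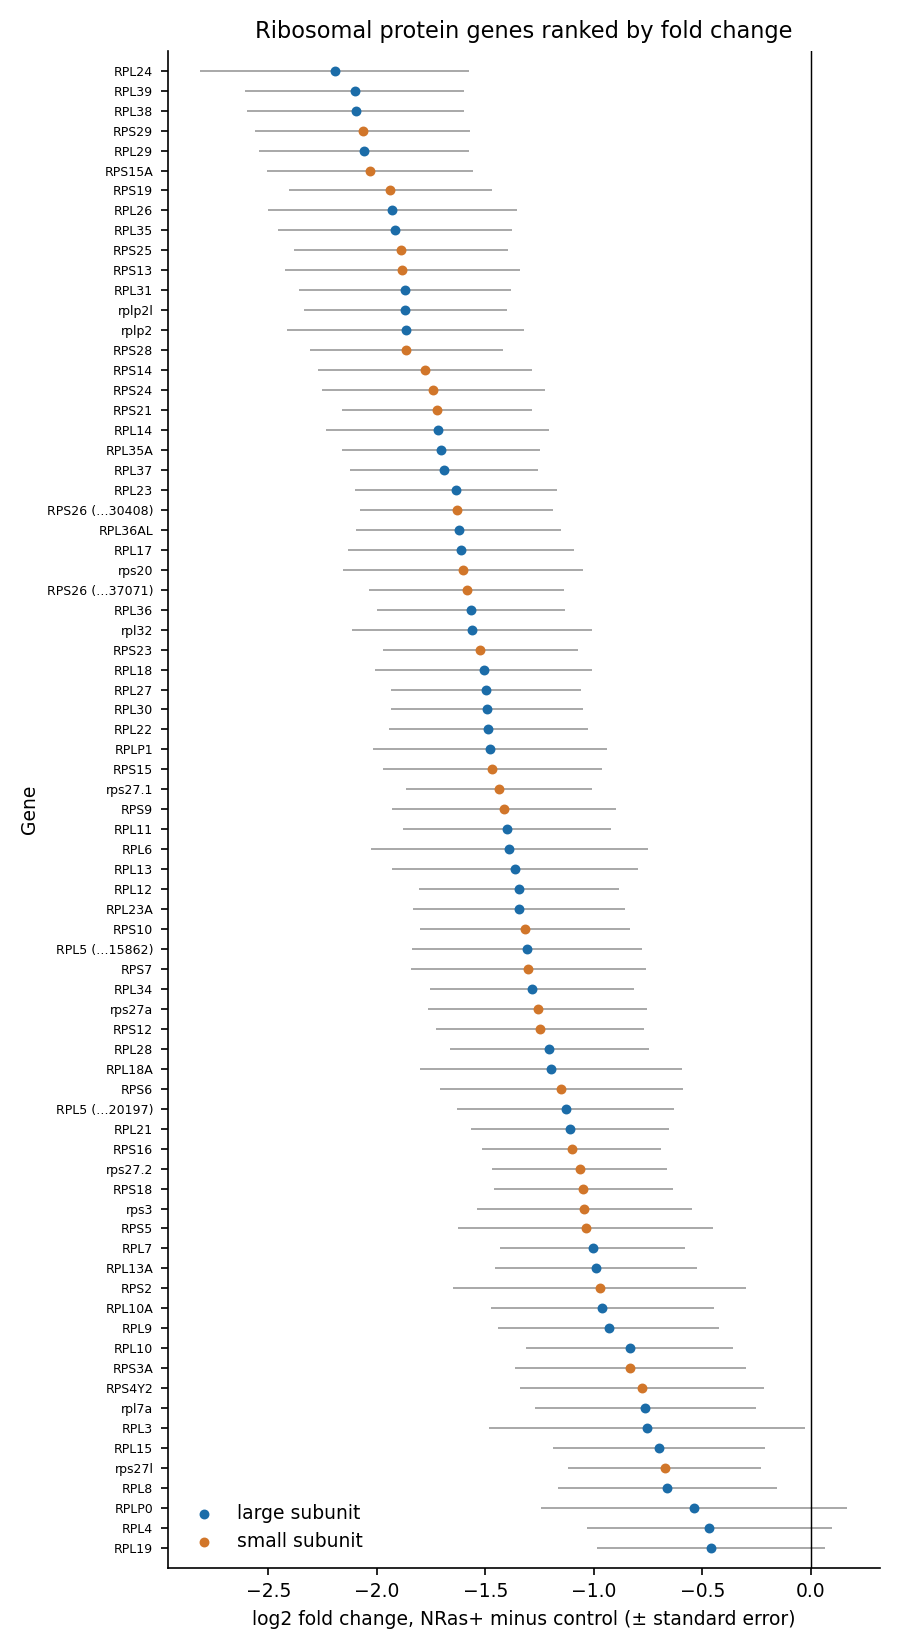
Log2 fold change (NRas+ minus control, horizontal axis) with its standard error for 75 of the 81 genes, ranked, from edgeR's quasi-likelihood fit. Values run from -2.19 for RPL24 to -0.46 for RPL19, and the other genes are not drawn. The last 5 digits of the Ensembl identifier tell apart genes with the same name.

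The P stalk was not uniform. RPLP1 (ENSDARG00000021864) had 1623 and 672 CPM in the controls and 537 and 286 CPM in NRas+ (log2 fold change -1.48). The genes rplp2 (ENSDARG00000101406) and rplp2l (ENSDARG00000011201), which encode its dimer partner, gave log2 fold changes of -1.87 and -1.87, from 1036 and 293 to 242 and 122 CPM and from 442 and 217 to 124 and 56.0 CPM. RPLP0, to which these dimers bind, had 5817 and 2929 CPM in the controls against 3419 and 2608 CPM in NRas+, with -0.54 as log2 fold change (standard error 0.71, adjusted p = 0.832 by edgeR). The difference between the stalk genes was not tested.

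RPL5 and RPL11 join the 5S rRNA in a particle that also binds Mdm2 and so links ribosome assembly to p53. The 2 copies of RPL5 had log2 fold changes of -1.13 (ENSDARG00000020197) and -1.31 (ENSDARG00000015862). They were nearly equal in counts, the first holding 44.8% and 51.6% of their sum in the controls and 50.1% and 49.97% in NRas+. RPL11 (ENSDARG00000043509) had 556 and 195 CPM in the controls and 177 and 107 CPM in NRas+ (log2 fold change -1.40), so control 2 was nearer to NRas+ 1 than to control 1.

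RPS6 (ENSDARG00000019778), the small subunit protein that S6 kinases phosphorylate, had 2420 and 1131 CPM in the controls against 926 and 675 CPM in NRas+ (log2 fold change -1.15, standard error 0.56, adjusted p = 0.452 by edgeR). RPS19 (ENSDARG00000030602), the gene most often mutated in Diamond-Blackfan anaemia, had 701 and 349 CPM against 176 and 98.4 CPM (log2 fold change -1.94). RPS14 (ENSDARG00000036629), lost on one chromosome in the human 5q- syndrome, had 1027 and 425 CPM against 255 and 169 CPM (log2 fold change -1.78). The ubiquitin fusion gene rps27a (ENSDARG00000032725) had 1403 and 633 CPM against 484 and 367 CPM (log2 fold change -1.26). In all of these both NRas+ libraries lay below both controls. RPS19 and RPS14 passed with DESeq2 (adjusted p = 0.00852 and 0.024), and RPS6 and rps27a did not (0.218 and 0.155).

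Of the genes mutated in human Diamond-Blackfan anaemia, 23 rows were matched. All 23 had a negative log2 fold change, with a median of -1.51 and a range from -2.06 to -0.70, and 22 had an unadjusted p under 0.05 (background 6.13%). The other 58 ribosomal protein genes had a median of -1.34. DESeq2 called 8 of the 23 as lower, and 21 of all 81 ribosomal protein genes (background 0.79%).

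The copies of RPS26 kept their proportions. The copy of RPS26 with more counts (ENSDARG00000030408) held between 68.2% and 70.0% of the counts of the pair in all 4 libraries, and the log2 fold changes of the 2 copies were -1.63 and -1.59. How reads shared by near-identical copies were counted was not examined, so these proportions are uncertain.

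The RPS27 genes did not keep theirs. The gene rps27l (ENSDARG00000100513), a p53 target in human cells, held 16.8% and 11.7% of the sum of rps27.1, rps27.2 and rps27l in the controls and 22.4% and 19.4% in NRas+, without overlap. Its level was 154 and 56.2 CPM in the controls and 80.8 and 50.5 CPM in NRas+ (log2 fold change -0.67), while rps27.1 (ENSDARG00000023298) had 463 and 248 CPM against 152 and 110 CPM (-1.44) and rps27.2 (ENSDARG00000055475) 299 and 179 CPM against 129 and 99.4 CPM (-1.06). Its larger share thus came with lower levels of both other genes, and no test of the difference was made.

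Related genes were examined in the same fit. Among 34 translation factors and other genes with TOP mRNAs, 25 had a negative and 9 a positive log2 fold change, with a median of -0.33 that was -0.039 without control 1 and -0.63 on plain library totals, and by edgeR's adjusted p 0 passed (2 lower and 0 higher at an unadjusted p under 0.05, and 1 lower by DESeq2). As a share of the library, this list held 3.04% (control 1), 3.18% (control 2), 1.97% (NRas+ 1) and 1.81% (NRas+ 2). Both NRas+ shares were thus lower than either control share, and the part of muscle RNA in this was not tested. The list includes proteins of the ribosome that the symbol rule does not reach. FAU (ENSDARG00000099022), whose product contains RPS30, had 1499 and 469 CPM in the controls and 304 and 178 CPM in NRas+ (log2 fold change -2.03, adjusted p = 0.131 by edgeR, 0.0176 by DESeq2), while its paralog faub (ENSDARG00000043663) had a log2 fold change of -0.24. RACK1 (ENSDARG00000041619), a scaffold on the small subunit, had a log2 fold change of -0.78, and the elongation factors eef1a1l1 (ENSDARG00000020850) and eef2b (ENSDARG00000100371) had -0.35 and -0.44.

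Because it does not depend on the scaling of the libraries, the ratio of ribosomal protein counts to those of this list was also taken. It was 2.88 and 2.07 in the controls and 1.70 and 1.47 in NRas+. The 73 genes for mitochondrial ribosomal proteins, which serve the separate ribosome of the mitochondrion, gave 29 negative and 44 positive log2 fold changes with a median of 0.062 that became -0.21 on plain library totals, -0.28 without control 2, -0.020 without NRas+ 1 and 0.52 without control 1, and 0 passed by edgeR's adjusted p (1 lower and 0 higher at an unadjusted p under 0.05, 0 by DESeq2). The cytosolic genes had 46.4 and 38.3 times their counts in the controls and 21.0 and 16.6 times in NRas+. For both ratios, each NRas+ library was below each control.

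**Figure D4:**
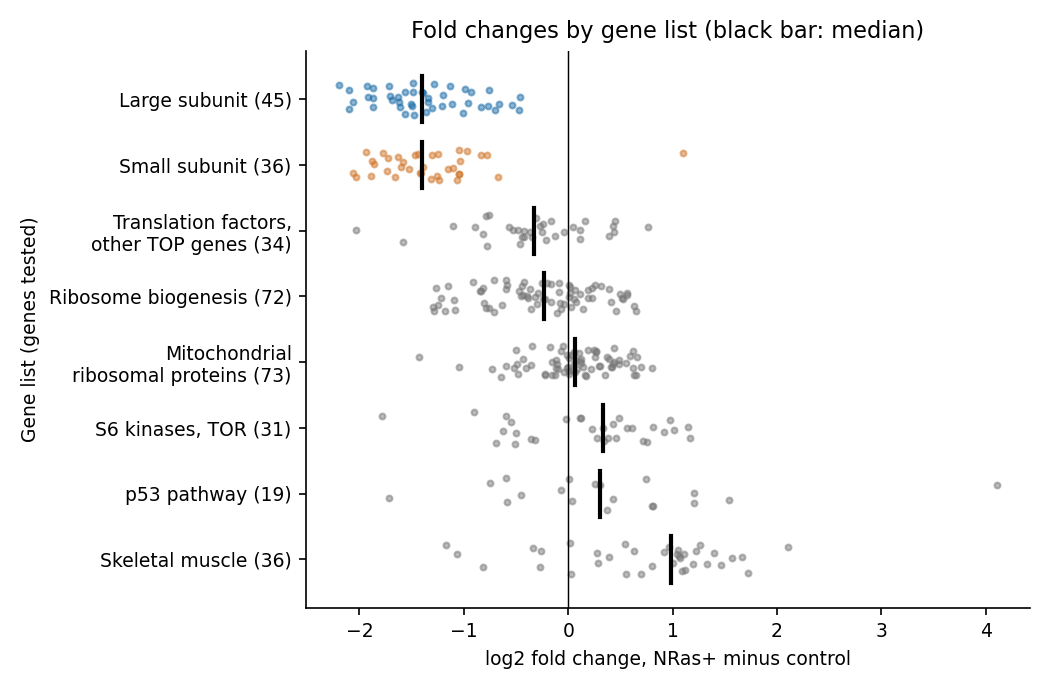
Log2 fold change (NRas+ minus control) of every tested gene in 8 lists, with the number of genes in brackets and a black bar at the median. The medians are -1.40 for both ribosomal subunits, -0.33 for translation factors and other TOP genes, -0.23 for ribosome biogenesis, 0.062 for mitochondrial ribosomal proteins (-0.21 on plain library totals), 0.33 for S6 kinases and TOR (-0.038 on plain library totals), 0.31 for the p53 pathway and 0.98 for skeletal muscle.

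Ribosome biogenesis factors, which assemble the subunits in the nucleolus, made up 0.583% of control 1, 0.55% of control 2, 0.382% of NRas+ 1 and 0.3% of NRas+ 2. Of 72 genes, 46 had a negative log2 fold change, the median was -0.23 and 11 had an unadjusted p under 0.05, all lower (background 6.13%), but 0 passed by edgeR's adjusted p and 0 by DESeq2. The median turned to 0.16 without control 1 and to 0.0093 without NRas+ 2, and it was -0.50 on plain library totals. NOP56 (ENSDARG00000012820), a core protein of box C/D snoRNPs, had 880 and 310 CPM in the controls and 324 and 188 CPM in NRas+ (log2 fold change -1.22), with control 2 just below NRas+ 1. DDX21 (ENSDARG00000063626), the other of the 2 most abundant genes, had 587 and 328 CPM against 465 and 310 CPM (log2 fold change -0.24), with overlap. The 31 genes for S6 kinases and the TOR pathway had a median of 0.33 and the 19 genes of the p53 pathway a median of 0.31, and by edgeR's adjusted p 0 of either passed (0 lower and 3 higher in each at an unadjusted p under 0.05, background 5.17% higher). On plain library totals these medians were -0.038 and 0.019. Among p53 targets CCNG1 (ENSDARG00000076667), a cyclin, had 275 and 282 CPM in the controls against 603 and 681 CPM in NRas+ (log2 fold change 1.2, adjusted p = 0.276 by edgeR and 0.0467 by DESeq2), the 1 gene of either list that DESeq2 called.

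Mitochondrial transcripts and the RNA malat1 did not follow the same order. Transcripts of the mitochondrial genome held 1.49% of control 1, 2.36% of control 2, 1.47% of NRas+ 1 and 1.60% of NRas+ 2. The nuclear-retained RNA malat1 took 0.799% and 2.02% in the controls and 1.31% and 1.19% in NRas+, so that the groups overlapped for both. Control 1 and NRas+ 1 each had about the same number of detected genes (21205 and 21191), as did control 2 and NRas+ 2 (25111 and 24490). Marker lists for macrophages, red cells and epidermis had median log2 fold changes of 0.21, 0.24 and 0.99, the former pair becoming -0.15 and -0.027 on plain library totals. The epidermal median was 0.65 on plain library totals, 0.35 without NRas+ 1 and 1.21 without NRas+ 2. Macrophage genes held 0.00221% and 0.00214% of the control counts and 0.00173% and 0.00207% in NRas+. Red cell genes held 0.0295% and 0.0258% against 0.0205% and 0.0225%, so both NRas+ libraries were below both controls for these lists. These are shares of all counts, muscle genes included, and the part of muscle RNA in this order was not tested. Epidermal genes held 0.468% and 0.340% against 0.691% and 0.332%, with overlap. By edgeR's adjusted p, 4 of 28 epidermal genes (krt93, krt95, krt97 and cldne) were called higher (background 0.129%).

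**Figure D5:**
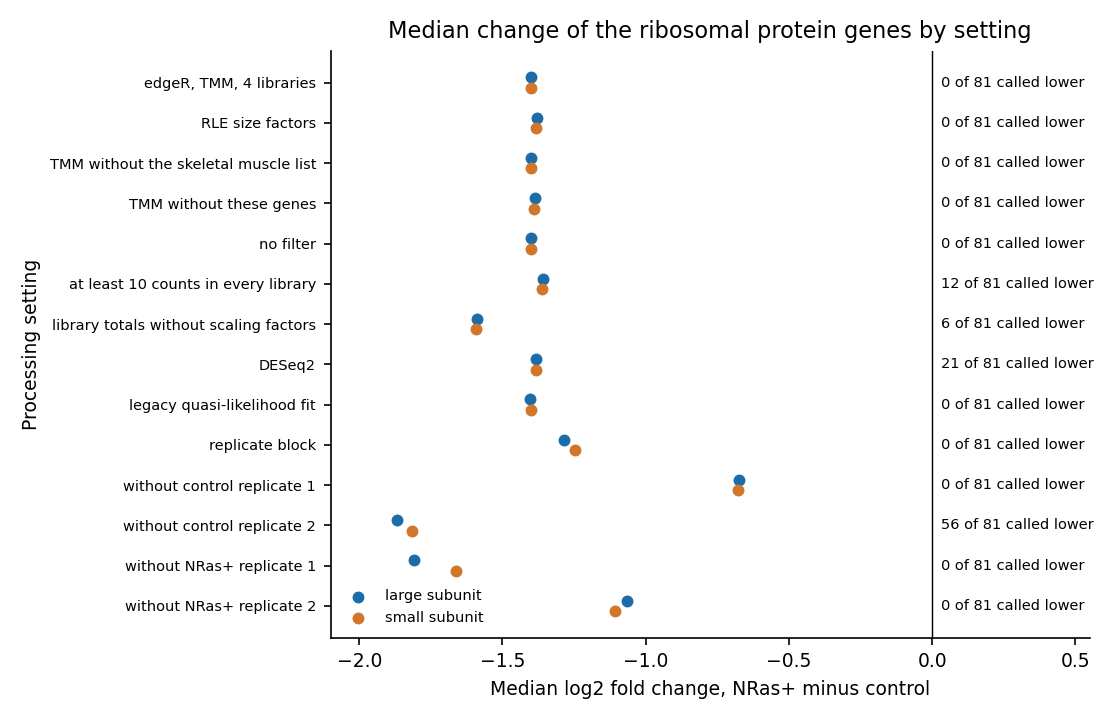
Median log2 fold change (NRas+ minus control) of the large and small subunit genes under each processing setting, with the number of the 81 genes called lower at an adjusted p under 0.05. The medians of both subunits stay below 0 and lie between -1.87 and -0.67. The calls range from 0 to 56, the highest number being reached without control 2.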

How the data were processed

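Nuclear RNA of 2 control and 2 NRas+ libraries was analysed. Per the labels and the methods of the study, the authors aligned reads to danRer10 with STAR (2.4.2a), and featureCounts then gave the raw counts per Ensembl gene that were deposited. The methods name standard parameters, which ignore strand, while the labels name a reverse strand, and counts of overlapping or antisense genes are therefore uncertain. All 4 columns were mapped to a library by name. Symbols were paired with 26121 of 31952 genes (81.8%).

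Low counts were removed by filterByExpr, TMM set the library scaling, and all genes were tested together by edgeR's quasi-likelihood test (edgeR 4.0.16, R 4.3.3) with Benjamini-Hochberg adjustment at 0.05. The scripts were tested on simulated data. The methods name 3 biological replicates of pooled larvae, of which the 2 libraries per group in the labels were analysed here, and p-values measure the spread between these libraries.

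The genes, lists and rules were chosen with earlier results of these data known. The rule names every gene called, per subunit and direction the 3 with the smallest unadjusted p whose groups do not overlap, all paralogs, the P stalk, and RPS6, RPL5, RPL11, RPS19, RPS14 and rps27a by role, and of the related lists the genes called and the 2 most abundant. RPL24, RPL3, RPL4, RPL8, RPL19, RPS7, FAU, faub, RACK1 and the genes under the other observations fall outside it and were chosen after their values were seen, as were the genes named for a call under an alternative (RPL35A, RPL18, rps20). Levels per transcript length, the part of the naming rule that needs them, and sequences at start sites were not analysed here, and some genes that the rule names are counted but not reported here by name.

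The alternatives were RLE size factors, TMM without skeletal muscle genes or without the ribosomal protein genes, other filters, DESeq2 1.42.0, the legacy fit, a replicate block, leaving out each library and, chosen after seeing the data, plain library totals.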

Additional observations from a re-analysis of the deposited data

How the results depend on the processing

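The number of ribosomal protein genes called lower was 0 in edgeR's quasi-likelihood test (63 at an unadjusted p under 0.05), and it was 12 with at least 10 counts in every library, 21 with DESeq2 and 6 on library totals without scaling factors. It was 0 with RLE size factors, both other TMM settings, no filter and the legacy fit. With each library left out in turn it ranged from 0 to 56, the 56 being reached without control 2. No gene was called higher under any of the 13 alternatives. The median log2 fold change ranged from -1.84 to -0.67 with a library left out, between -1.87 and -0.67 for the large and between -1.82 and -0.68 for the small subunit, and the value nearest to 0 was always that without control 1. The ratio of the mean share of counts, NRas+ over control, was 0.392, between 0.343 and 0.457 with a library left out, and 0.493 without the skeletal muscle genes in the total. The direction changed for 3 of 81 genes, each without control 1, with a range over the left-out libraries of -0.81 to 0.065 for RPL19, -0.93 to 0.053 for RPLP0 and -1.21 to 0.23 for rps27l. With the replicate number as a block, the median was -1.28 and 0 genes were called. The labels do not say that equal numbers mark 1 experiment, and across 20099 genes the replicate 1 minus 2 difference of one group had a correlation of 0.16 with that of the other, over only 2 pairs. Library totals move the median of all genes to -0.40. The cause of these shifts was not tested.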

Other observations

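Some genes next to the ribosomal protein set had values of their own. RPL22L1 (ENSDARG00000010244), the paralog that can replace RPL22 in the ribosome, had 269 and 81.7 CPM in the controls and 64.4 and 42.2 CPM in NRas+ (log2 fold change -1.71, adjusted p = 0.141 by edgeR's quasi-likelihood test), next to -1.49 for RPL22 itself. RPL7L1 (ENSDARG00000042864), which acts in ribosome assembly, had 58.5 and 35.6 CPM against 58.3 and 33.5 CPM, a log2 fold change of -0.028. The non-coding gene gas5 (ENSDARG00000092337), which hosts snoRNAs in its introns and whose RNA begins with a TOP sequence in mammals, had 264 and 223 counts in the controls and 71 and 48 counts in NRas+, with -2.05 as log2 fold change (standard error 0.78, adjusted p = 0.316 by edgeR). The zebrafish NRAS gene (ENSDARG00000038225) had 247 and 519 counts in the controls and 848 and 660 counts in NRas+ (log2 fold change 1.12, adjusted p = 0.339 by edgeR). Whether reads of the transgene are among these counts was not tested.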
